A study of Mus musculus with 31 samples.

Results

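Ependymal cells of the injured mouse spinal cord were compared between 5 days and 1 day after injury. The comparison sets the 2 Foxj1_tdT bulk RNA libraries labelled 5dpi against the 2 labelled 1dpi, 4 of the 31 samples of the series, and covers every gene of the deposited table. The libraries were chosen by their labels alone. All groups are of the C57BL/6 background. Foxj1_tdT cells carry a genotype named for Foxj1, the transcription factor of motile ciliated cells, and for the red fluorescent protein tdTomato, and serve as the control genotype. Foxj1_Olig2_tdT cells carry Olig2 as well, a transcription factor of the oligodendrocyte lineage. Their uninjured, 1 dpi and 5 dpi pairs entered the fit to share the estimate of the spread and were used for a test of how the genotypes differ. The uninjured Foxj1_tdT pair is given for reference only. Each library is labelled as Smart-seq2, a full-length method for small inputs, on 1000 ependymal cells obtained by tissue digestion and flow cytometry. The labels give no age or sex, no kind of injury, no expansion of dpi (read here as days post injury) and no statement that replicates came from separate animals. P-values therefore measure only how far these libraries spread, and that spread may be technical. A reporter named for Foxj1 marks cells by the activity of that promoter, so a marked cell need not still be an ependymal cell.

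The ependymal lining of the central canal beats motile cilia into the cerebrospinal fluid. Its cells are quiescent in the intact adult cord and are known to divide after injury, where part of their progeny takes on features of astrocytes and contributes to the glial scar. A cell that re-enters the cycle first builds ribosomes and raises biosynthesis, then copies its DNA with the MCM helicase and its partners, and last assembles the spindle and divides. Scar-forming cells secrete collagens and fibronectin, cross-link them with lysyl oxidases, and respond to TGF-beta ligands stored in the matrix.

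Values are normalised counts per gene as deposited, and the sequencing depth behind them is unknown. They summed to between 12601290 and 13878102 per library over the 12 bulk RNA libraries, and between 14395 and 15379 genes per library had a value above 0. Replicates at 1 dpi correlated across genes at r = 0.874, and those at 5 dpi at r = 0.885, on the log2(value + 1) scale. Genes are not independent replicates, so these are descriptions. The first 1 dpi library stood apart from its partner. Dcn, a proteoglycan of fibroblasts, read 13599.8 and 0.5 at 1 dpi versus 108 and 34.6 at 5 dpi. The myelin gene Mbp read 8543 and 8896 uninjured, 8240 and 162 at 1 dpi versus 391 and 881 at 5 dpi. For Mbp the first 1 dpi library was thus near the uninjured pair, and the other injured libraries were lower. The neuronal synaptic gene Snap25 read 1574 and 36.5 at 1 dpi versus 0 and 3.5 at 5 dpi. The second 5 dpi library stood apart from its partner in oligodendrocyte lineage genes, with 52.1 and 0 at 1 dpi versus 64.6 and 1159 at 5 dpi for Olig1 and 11.7 and 2.2 at 1 dpi versus 17.4 and 195 at 5 dpi for Olig2. Dcn and Olig1 were chosen after their values were seen. Counts of calls in most lists are therefore also given without each of the 4 libraries.

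Markers of the labelled cell type were present at both times. The 7 ependymal markers made up 0.214% and 0.129% at 1 dpi and 0.188% and 0.226% at 5 dpi of the summed normalised counts, against 0.667% and 0.678% in the uninjured libraries. Foxj1 read 2708 and 3055 uninjured, 1368 and 1113 at 1 dpi versus 1280.1 and 1252 at 5 dpi (log2 change 0.04 ± 0.19, adjusted p = 0.95). The 4 injured libraries lay within a narrow band for this gene and all lay below the uninjured pair. Of the 14 microglial markers 6 were in the table, and P2ry12 and Csf1r were listed at 0 in all 4 injured libraries. The microglial list summed to 0.0146% and 0.0132% at 1 dpi and 0.0246% and 0.0319% at 5 dpi, higher in both 5 dpi libraries, and its part in the results was not tested.

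Of 16301 genes 15521 were tested with limma on log2(value + 1), after a filter that asked for 2 or more libraries with 10 or more normalised counts. Calls were made at an adjusted p under 0.05 (Benjamini-Hochberg over all genes tested). In total 471 genes (3.03%) differed between 5 dpi and 1 dpi, of which 206 (1.33%) were higher and 265 (1.71%) lower at 5 dpi, and 2781 (17.9%) had an unadjusted p under 0.05, with 8.85% higher and 9.07% lower. The median log2 fold change over all genes tested was 0.05. All fold changes are 5 dpi minus 1 dpi on the log2(value + 1) scale with their standard error, which understates changes of low genes, and no fold is given for a gene listed at 0 in both libraries of a group. The number of calls rested on the libraries: it was 80 without the first and 30 without the second 1 dpi library, 280 without the first and 6 without the second 5 dpi library, and 33 when the 4 libraries were fitted alone. No called gene that was tested changed sign in any of these fits, and 461 of the 471 were tested in each fit without a Foxj1_tdT 5 dpi library. The genes were called for a large difference between the same libraries. A constant sign was therefore nearly fixed in advance and is no check of the calls. Of the 471 genes, 181 were called in at least 1 of the 4 fits without a compared library and 290 in none. With 12 libraries in the fit, the nearly identical uninjured pair included, 925 genes were called. The plot of calls by setting shows the spread of these counts in each direction.

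**Figure D1:**
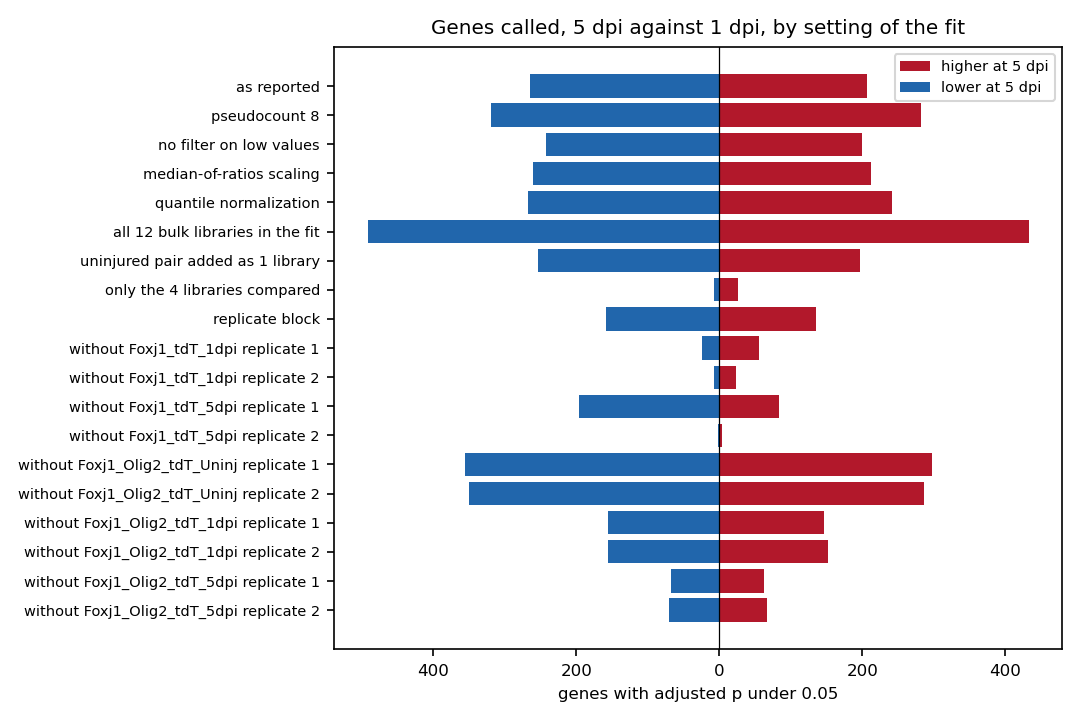
Number of genes with adjusted p under 0.05 for 5 dpi against 1 dpi in Foxj1_tdT cells (horizontal axis), higher at 5 dpi to the right and lower to the left, for the fit reported and 18 alternatives. The count runs from 6 genes without the second 5 dpi library to 925 with all 12 libraries.

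Genes of DNA replication fell between 1 and 5 dpi. Of 36 genes tested 11 fell and 0 rose, against 1.71% of all genes that fell, and the list's median log2 fold change was -1.57. In 32 of the 36 both 5 dpi libraries lay below both 1 dpi libraries, which held for 23.1% of all genes tested. Mcm4, a subunit of the MCM helicase that unwinds DNA, read 2995 and 3024 at 1 dpi versus 920.4 and 644 at 5 dpi (log2 change -1.97 ± 0.27, adjusted p = 0.0147). Mcm6, a further subunit of the same ring, read 4941 and 6564 at 1 dpi versus 1515 and 847 at 5 dpi (log2 change -2.33 ± 0.34, adjusted p = 0.0157). In both genes the 5 dpi libraries lay around the uninjured values, which were 888 and 826 for Mcm4 and 922 and 876 for Mcm6. Mcm5 read 1455 and 1607 at 1 dpi versus 271 and 136 at 5 dpi (log2 change -2.99 ± 0.47, adjusted p = 0.0182), and Mcm7 read 2639 and 2152 at 1 dpi versus 854 and 722 at 5 dpi (log2 change -1.60 ± 0.26, adjusted p = 0.0202). Uhrf1, which carries DNA methylation over to the new strand, read 2267 and 1568 at 1 dpi versus 287 and 345 at 5 dpi (log2 change -2.58 ± 0.40, adjusted p = 0.0182). Pcna, the sliding clamp of the DNA polymerases, read 6109 and 6088 at 1 dpi versus 1858 and 2706 at 5 dpi (log2 change -1.44 ± 0.25, adjusted p = 0.0252). Both 5 dpi values of Pcna remained above its uninjured values of 782 and 741. Without each of the 4 libraries in turn (first and second at 1 dpi, then first and second at 5 dpi) 0, 0, 6 and 0 of the list's genes fell, and the median stayed between -1.77 and -1.53. In bulk libraries fewer cells of a type and less RNA per cell cannot be told apart.

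Some promoters of the DNA replication list hold the letters of an E2F site, the element through which E2F factors control genes of the G1 to S transition. Windows of 300 bases, 250 before to 50 after each start, came from RefSeq (GRCm38.p6), and 30 of the 36 genes matched in 35 windows. The letters TTTNGCGC, on either strand, occurred in 10 of the 35 windows (28.6%), against 452 of 32851 windows of all genes (1.38%) and 2.20% of windows of genes tested. Of the 9 falling members with a window 4 held them. The windows of Mcm5, Mcm6 and Uhrf1 are shown because these genes fell and hold the letters. Uhrf1 has 2 windows, of which 1 is shown. Capitals mark the site on either strand, and matches may overlap.
Mcm5 (chr8:75109259-75109558, plus strand): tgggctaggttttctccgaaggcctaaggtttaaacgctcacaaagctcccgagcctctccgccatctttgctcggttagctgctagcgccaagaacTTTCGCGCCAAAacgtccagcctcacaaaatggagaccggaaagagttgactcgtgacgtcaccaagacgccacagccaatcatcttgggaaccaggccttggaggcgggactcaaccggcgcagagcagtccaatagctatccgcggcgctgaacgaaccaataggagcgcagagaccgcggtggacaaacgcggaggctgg
Mcm6 (chr1:128359656-128359955, minus strand): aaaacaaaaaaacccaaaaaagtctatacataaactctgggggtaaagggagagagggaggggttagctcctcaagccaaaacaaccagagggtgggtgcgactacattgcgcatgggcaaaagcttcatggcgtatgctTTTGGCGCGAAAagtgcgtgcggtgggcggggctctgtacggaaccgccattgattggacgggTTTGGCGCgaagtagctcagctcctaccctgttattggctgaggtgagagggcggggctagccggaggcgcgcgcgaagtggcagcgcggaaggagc
Uhrf1 (chr17:56304063-56304362, plus strand): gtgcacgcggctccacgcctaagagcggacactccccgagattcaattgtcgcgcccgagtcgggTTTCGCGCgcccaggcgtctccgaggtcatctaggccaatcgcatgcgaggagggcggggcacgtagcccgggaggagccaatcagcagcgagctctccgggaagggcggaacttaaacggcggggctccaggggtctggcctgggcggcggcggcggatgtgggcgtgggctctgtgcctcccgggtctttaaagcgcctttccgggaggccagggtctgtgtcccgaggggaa
A match is a description of letters, not evidence of binding. The first matched base lay at -153 from the start in Mcm5, where 2 matches overlap, at -110 in Mcm6, which holds 3 matches, and at -185 in Uhrf1. Over all falling genes with a window, 12 of 256 windows (4.69%) held these letters, and over rising genes 1 of 193 (0.52%).

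No mitosis gene was called between the times. Of 40 genes tested for the spindle, kinetochore and cytokinesis 0 were called in either direction by limma, and their median log2 fold change was 0.39. At an unadjusted p under 0.05, 1 was higher and 0 were lower. Top2a, which untangles chromosomes before they part, read 168 and 175 uninjured, 859 and 710 at 1 dpi versus 884 and 909.7 at 5 dpi (log2 change 0.20 ± 0.63, adjusted p = 0.91). Prc1, which bundles the central spindle, read 271 and 209 uninjured, 402 and 745 at 1 dpi versus 1410.4 and 783 at 5 dpi (log2 change 0.94 ± 0.53, adjusted p = 0.4). Nuf2, a kinetochore subunit, read 1122 and 636 at 1 dpi versus 841 and 996 at 5 dpi (log2 change 0.12 ± 0.38, adjusted p = 0.915), below its uninjured values of 1906 and 1745. Top2a and Prc1 were thus above the uninjured pair in all 4 injured libraries. Mki67, a proliferation marker chosen after its values were seen, read 1.1 and 0.9 uninjured, 923 and 349.5 at 1 dpi versus 884 and 319 at 5 dpi, with more difference between replicates than between times. The list's median was 0.53, -0.21, -0.12 and 1.00 without the first and second 1 dpi and the first and second 5 dpi library, so its sign rested on single libraries.

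Promoter letters of the mitosis list were counted in the same way. The letters TTTGAA, the core of the element called CHR that is known from G2 and M phase genes, occurred on either strand in 27 of 36 windows (75.0%) of this list. The share was 11.4% for DNA replication windows, 12.5% for windows of genes tested and 17.9% for windows of all genes, while the E2F letters occurred in 5.56% of mitosis windows. Top2a and Prc1 are shown as members that were not called, with TTTGAA or its reverse complement in capitals.
Top2a (chr11:99024140-99024439, minus strand): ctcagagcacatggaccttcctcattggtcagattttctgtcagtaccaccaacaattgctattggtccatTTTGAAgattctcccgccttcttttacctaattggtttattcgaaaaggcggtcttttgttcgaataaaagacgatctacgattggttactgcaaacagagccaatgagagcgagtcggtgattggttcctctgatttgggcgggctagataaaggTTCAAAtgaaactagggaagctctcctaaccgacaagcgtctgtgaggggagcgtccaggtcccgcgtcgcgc
Prc1 (chr7:80294201-80294500, plus strand): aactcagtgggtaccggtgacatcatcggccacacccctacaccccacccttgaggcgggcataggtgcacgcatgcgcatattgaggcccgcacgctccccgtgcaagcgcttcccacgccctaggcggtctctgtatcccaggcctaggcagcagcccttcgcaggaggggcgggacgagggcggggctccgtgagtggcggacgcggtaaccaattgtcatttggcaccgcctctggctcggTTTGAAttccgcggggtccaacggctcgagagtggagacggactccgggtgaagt
Whether the letters bear on the values was not tested.

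Genes of cell cycle entry fell in part. Of 21 genes tested 3 fell (14.3%) and 0 rose, with a median of -0.60. Over all genes tested 1.71% fell and 1.33% rose. Ccnd1 (GRCm38.p6 chr7:144929931-144939831), the cyclin that drives G1 progression, read 97.5 and 116 uninjured, 4133 and 3403 at 1 dpi versus 283 and 148 at 5 dpi (log2 change -4.19 ± 0.50, adjusted p = 0.0079). Its 5 dpi values were much nearer to the uninjured ones than to those at 1 dpi. Cdk4, its kinase partner, read 6034 and 6609 at 1 dpi versus 3488 and 3506 at 5 dpi (log2 change -0.85 ± 0.15, adjusted p = 0.0253). Cdkn1a, the p21 inhibitor of these kinases and a p53 target, read 1208 and 1016 at 1 dpi versus 169 and 135 at 5 dpi (log2 change -2.87 ± 0.54, adjusted p = 0.0299), and its 5 dpi values were below the uninjured 464 and 534. Of 22 p53 targets and apoptosis genes 3 fell and 1 rose. Phlda3, a p53 target that restrains AKT, read 1089 and 1241 at 1 dpi versus 274 and 289.6 at 5 dpi (log2 change -2.04 ± 0.33, adjusted p = 0.0203), and Trp53 itself read 1844 and 2446 at 1 dpi versus 1059.5 and 919 at 5 dpi (log2 change -1.11 ± 0.23, adjusted p = 0.039). Fas, a death receptor, rose, with 1422 and 1142 at 1 dpi versus 3980.3 and 2489 at 5 dpi (log2 change 1.30 ± 0.29, adjusted p = 0.0468). An activator and an inhibitor of the cycle therefore fell side by side. With 1 of the 4 libraries left out in the same order, 0, 0, 2 and 0 of the entry genes fell, and none of the p53 list was called in any of these 4 fits.

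Genes of ribosome assembly fell as well. Of 30 ribosome biogenesis genes 12 fell (40%) and 0 rose, against 1.71% of all genes that fell, with a median of -1.34. In 28 of them (93.3%) both 5 dpi libraries lay below both 1 dpi libraries, against 23.1% of all genes tested. Npm1 (chr11:33152498-33164142), a nucleolar chaperone of ribosome assembly, read 6240.5 and 5957 uninjured, 16229.9 and 17634 at 1 dpi versus 7497 and 7029 at 5 dpi (log2 change -1.22 ± 0.12, adjusted p = 0.00494). Ncl, nucleolin, read 10631 and 15327 at 1 dpi versus 5301 and 5078 at 5 dpi (log2 change -1.30 ± 0.17, adjusted p = 0.0134). Nop56, a core protein of the box C/D particles that methylate ribosomal RNA, read 2872 and 4333 at 1 dpi versus 967 and 487 at 5 dpi (log2 change -2.36 ± 0.33, adjusted p = 0.0147), and its partner Nop58 read 2737 and 3834 at 1 dpi versus 1108 and 527 at 5 dpi (log2 change -2.08 ± 0.33, adjusted p = 0.0202). In these 4 genes no 5 dpi library reached a 1 dpi one. Srm, spermidine synthase, read 154 and 171 uninjured, 1797 and 2561 at 1 dpi versus 496 and 173 at 5 dpi (log2 change -2.87 ± 0.44, adjusted p = 0.0182). Nop14, a factor of small subunit maturation, read 802 and 842 at 1 dpi versus 209.6 and 209 at 5 dpi (log2 change -1.97 ± 0.34, adjusted p = 0.0248), and its 5 dpi values were below the uninjured 409 and 426. In the 4 fits that leave out a library, 3, 1, 10 and 0 members fell, and the median lay between -1.68 and -1.16.

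Most ribosomal protein genes fell, in smaller steps. Of 35 cytosolic ribosomal protein genes 26 fell (74.3%) and 0 rose, against 1.71% of all genes that fell, with a median of -0.79. In 34 of 35 (97.1%) both 5 dpi libraries lay below both 1 dpi libraries, against 23.1% of all genes tested. Rpl18, a large subunit protein, read 3012 and 3237 uninjured, 9887 and 10764 at 1 dpi versus 4929.9 and 4736 at 5 dpi (log2 change -1.09 ± 0.14, adjusted p = 0.0104). Rps2, a small subunit protein, read 5306 and 5136 uninjured, 24321 and 21487 at 1 dpi versus 11188 and 10395 at 5 dpi (log2 change -1.08 ± 0.15, adjusted p = 0.0147). Rpl13 read 14662 and 16682 at 1 dpi versus 7914 and 7058 at 5 dpi (log2 change -1.07 ± 0.14, adjusted p = 0.0135), and Rps3 read 12473 and 13857 at 1 dpi versus 7631 and 6515 at 5 dpi (log2 change -0.90 ± 0.13, adjusted p = 0.0157). Each was higher at 1 dpi than in the uninjured pair, with 5 dpi values in between or near the uninjured ones. Ribosomal protein genes have many near-identical pseudogenes, so reads may be split between copies and single values are uncertain. Leaving out each library in that order, 2, 0, 13 and 0 fell, and the median lay between -0.85 and -0.71. The plot of list medians by library shows the 3 growth lists highest in both 1 dpi libraries.

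**Figure D2:**
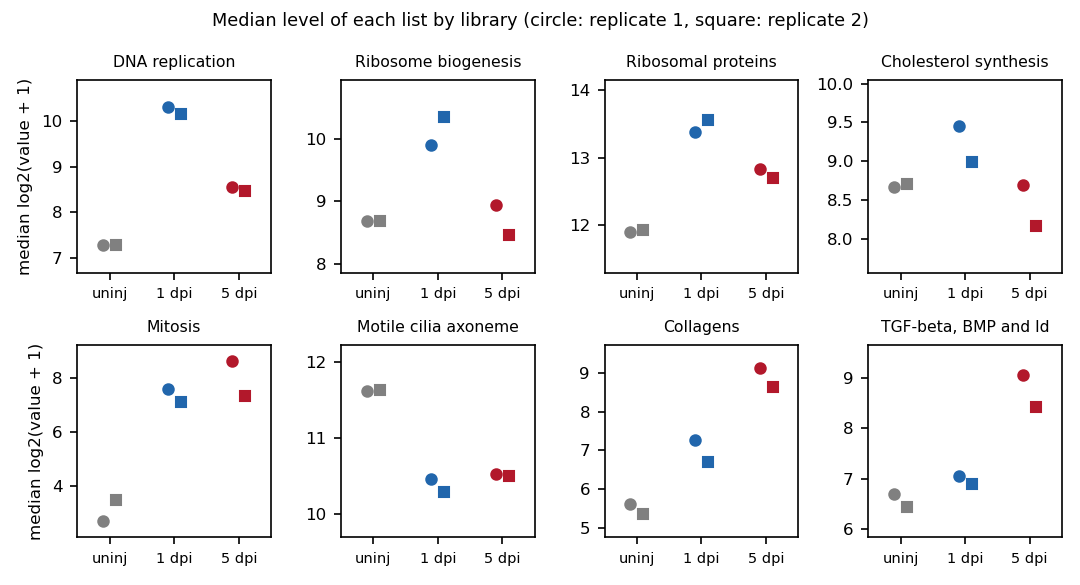
Median log2(value + 1) over the tested members of 8 lists (vertical axes, each with its own range) in the 2 uninjured, 2 1 dpi and 2 5 dpi Foxj1_tdT libraries, 1 point per library. DNA replication, ribosome and cholesterol lists are highest in both 1 dpi libraries, collagen and TGF-beta lists in both 5 dpi libraries, and the cilia list is highest in the uninjured pair.

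Some glycolysis genes fell (19.2% of those tested), and the respiratory chain list held 1 call in each direction (3.12% each). Over all genes tested 1.71% fell and 1.33% rose. Of 26 glycolysis and hypoxia genes 5 fell and 0 rose, with a median of -0.63, or -0.62 without 1 gene listed at 0 in a group. Pkm, pyruvate kinase, read 9024 and 9196 uninjured, 17625 and 17627 at 1 dpi versus 7496 and 5783 at 5 dpi (log2 change -1.42 ± 0.17, adjusted p = 0.00767). Ldha, which turns pyruvate into lactate, read 2053 and 1976 uninjured, 9881 and 12330.1 at 1 dpi versus 5676 and 4154 at 5 dpi (log2 change -1.18 ± 0.23, adjusted p = 0.0326). Pkm had returned below its uninjured level at 5 dpi, while Ldha remained above its own. Eno1, enolase, read 19497 and 16854 at 1 dpi versus 8094 and 6916 at 5 dpi (log2 change -1.28 ± 0.26, adjusted p = 0.0374), and Gapdh, often used as a reference gene, read 26944 and 30813 at 1 dpi versus 17709 and 19339 at 5 dpi (log2 change -0.64 ± 0.13, adjusted p = 0.0374). Tpi1, triose phosphate isomerase, read 5796 and 7264 at 1 dpi versus 4062 and 2858 at 5 dpi (log2 change -0.93 ± 0.21, adjusted p = 0.0484). Eno1 and Gapdh have many processed pseudogenes, which makes their values uncertain. With single libraries left out in that order, 1, 0, 5 and 0 members fell. Of 32 respiratory chain genes 1 fell and 1 rose: Atp5b, the catalytic subunit of ATP synthase, read 15062 and 16282 at 1 dpi versus 10554 and 10684 at 5 dpi (log2 change -0.56 ± 0.11, adjusted p = 0.0363), and Cox6c, a subunit of cytochrome oxidase, read 4749 and 4696 at 1 dpi versus 7869 and 7748 at 5 dpi (log2 change 0.73 ± 0.15, adjusted p = 0.0374). Neither held without any 1 of the 4 libraries.

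Genes of cholesterol synthesis fell while a cholesterol exporter rose. Of 25 genes of sterol metabolism 5 fell (20%) and 1 rose (4%), with a median of -1.21. Over all genes tested 1.71% fell and 1.33% rose. Fdps, farnesyl diphosphate synthase, read 366 and 320.2 uninjured, 2585 and 1634 at 1 dpi versus 417 and 180 at 5 dpi (log2 change -2.90 ± 0.42, adjusted p = 0.0157). Insig1, the sterol sensor that holds back SREBP, read 1772 and 1394 at 1 dpi versus 360.2 and 225 at 5 dpi (log2 change -2.46 ± 0.38, adjusted p = 0.0182). Both genes, known targets of SREBP, were well above the uninjured pair in both 1 dpi libraries. Msmo1, a sterol oxidase, read 4503 and 4114 at 1 dpi versus 1037 and 1129 at 5 dpi (log2 change -1.99 ± 0.35, adjusted p = 0.0253). Abca1, the transporter that exports cholesterol and is known to be induced by oxysterols through LXR, moved the other way, with 2685 and 2480.5 uninjured, 697 and 494 at 1 dpi versus 4460 and 7892 at 5 dpi (log2 change 3.34 ± 0.33, adjusted p = 0.00494). Its 1 dpi libraries were the lowest and its 5 dpi libraries the highest. Without each of the 4 libraries in turn 0, 0, 4 and 0 members fell, and Abca1 rose in the first 3 of these fits but not without the second 5 dpi library. The list median lay between -1.58 and -0.68.

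**Figure D3:**
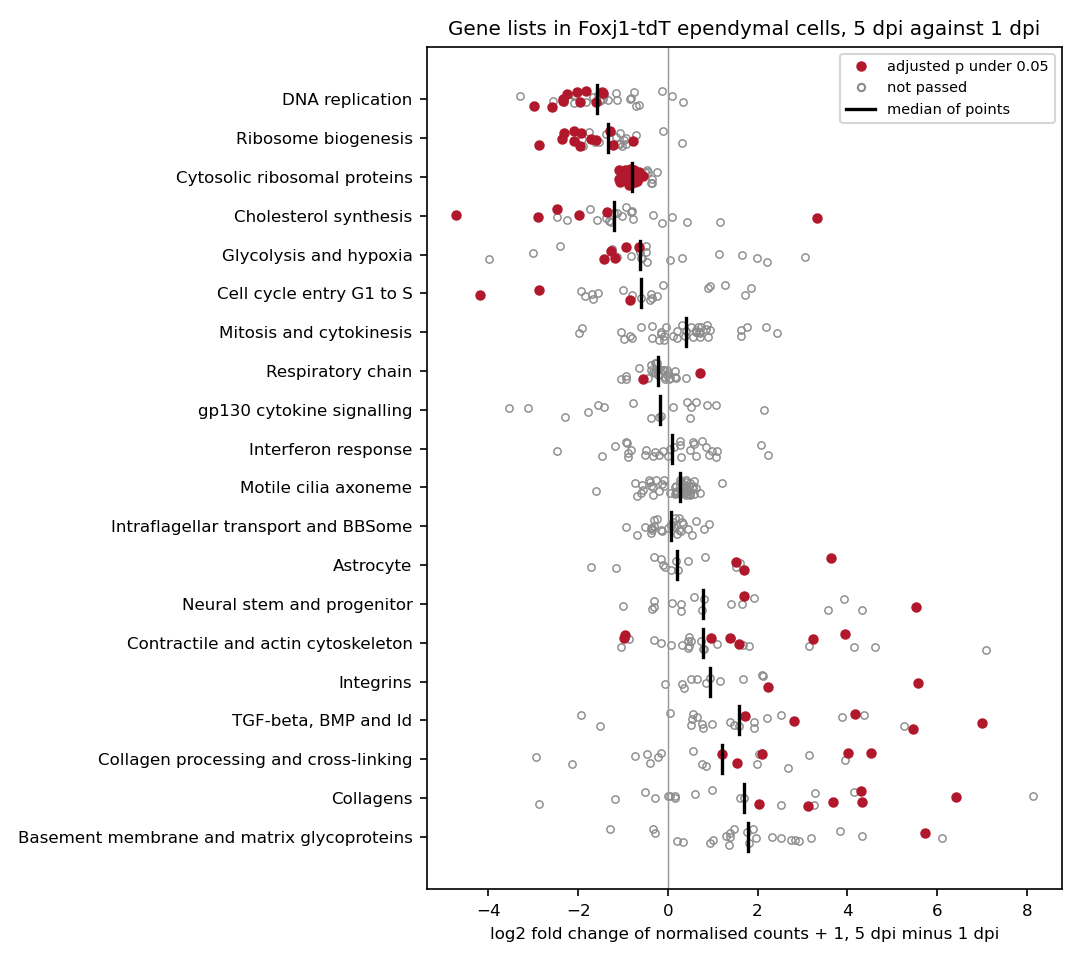
Log2 fold change of normalised counts + 1, 5 dpi minus 1 dpi (horizontal axis), for tested members of 20 lists, leaving out genes listed at 0 in a group; filled points passed an adjusted p of 0.05, and bars are medians of the points shown. Medians of the growth lists lie left of 0 and those of the matrix lists right of 0, with some members on the other side. The mitosis and cilia lists hold no filled point.

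Collagen genes rose between 1 and 5 dpi. Of 24 collagens tested 7 rose and 0 fell, against 1.33% of all genes that rose, with a median of 1.87, or 1.70 without 1 gene listed at 0 in a group. Col1a1 (chr11:94936224-94953042), a chain of fibrillar type I collagen, read 25.1 and 3.1 uninjured, 5.6 and 10.8 at 1 dpi versus 842 and 673 at 5 dpi (log2 change 6.42 ± 0.76, adjusted p = 0.00767). Col1a2, its partner chain, read 383 and 349.5 uninjured, 242 and 203 at 1 dpi versus 5438 and 3701 at 5 dpi (log2 change 4.33 ± 0.68, adjusted p = 0.0185). At 1 dpi both chains were near or below their uninjured values, and both 5 dpi libraries stood far above. Col12a1, a collagen that decorates fibrils, read 127 and 237 at 1 dpi versus 2602 and 1895 at 5 dpi (log2 change 3.67 ± 0.58, adjusted p = 0.0193), and Col6a1, of microfibrils around cells, read 86.8 and 94.6 at 1 dpi versus 2887 and 1119 at 5 dpi (log2 change 4.29 ± 0.93, adjusted p = 0.0448). Col4a1, of basement membranes, read 319.5 and 339 at 1 dpi versus 1936 and 940.5 at 5 dpi (log2 change 2.03 ± 0.45, adjusted p = 0.0475). Col3a1, a fibrillar collagen listed at 0 in both 1 dpi libraries, read 141 and 17.9 at 5 dpi (adjusted p = 0.0448). With 1 of the 4 libraries left out in the same order, 1, 1, 1 and 0 collagens rose, and the median lay between 1.61 and 2.47. Col1a1 was called in the first 3 of these fits. Col1a1, Col1a2 and Col3a1 also stand among the markers of fibroblasts, of which 8 of 10 were in the table. That list summed to 0.107% and 0.00229% at 1 dpi and 0.0534% and 0.0375% at 5 dpi. Nearly all of the sum in the first 1 dpi library was Dcn, a defining fibroblast gene, which was 13599.8 there, 0.5 in the second 1 dpi library, and 107.5 and 34.6 at 5 dpi. Without Dcn, which was left out after its values were seen, the other 7 markers summed to 0.00265% and 0.00228% at 1 dpi and to 0.0525% and 0.0373% at 5 dpi. The 3 of them that are no collagens, Pdgfra, Fbln1 and Ogn, summed to 0.000745% and 0.000565% at 1 dpi and to 0.00212% and 0.00242% at 5 dpi, close to the uninjured 0.00227% and 0.00218%. Pdgfra, a defining marker of fibroblasts, was listed at 0 in both 1 dpi libraries and the first 5 dpi one and read 1 in the second. Of the 7 fibroblast markers tested the same 3 collagens rose and 0 fell. The list's median was 1.93 and lay between 1.87 and 5.09 without each library. In 4 of the 7 (57.1%) both 5 dpi libraries lay above both 1 dpi libraries, against 25.8% of all genes tested. In sum the fibroblast markers other than Dcn were thus higher at 5 dpi with the collagens, and their part in the collagen result was not tested.

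Enzymes that process and cross-link collagen rose with it. Of 22 genes 6 rose (27.3%) and 0 fell, against 1.33% of all genes that rose. The median was 1.38, or 1.21 without 1 gene listed at 0 in a group. Sparc, a secreted collagen chaperone, read 6974 and 6782 uninjured, 8128 and 6367 at 1 dpi versus 32083 and 29351 at 5 dpi (log2 change 2.09 ± 0.24, adjusted p = 0.00767). Its 5 dpi libraries agreed closely and its 1 dpi libraries stayed around the uninjured level. Lox, lysyl oxidase, which starts collagen cross-links, was listed at 0 in both 1 dpi libraries and read 1348 and 298 at 5 dpi (adjusted p = 0.0248). Its relatives Loxl1 and Loxl2 read 36 and 90.1 at 1 dpi versus 1105 and 787 at 5 dpi (log2 change 4.01 ± 0.74, adjusted p = 0.0299) and 17 and 12.9 at 1 dpi versus 489 and 268 at 5 dpi (log2 change 4.52 ± 0.91, adjusted p = 0.0363) in that order. All 3 lysyl oxidases were low in the uninjured pair, with 0 and 2.6 for Lox, 0 and 1.8 for Loxl1 and 3 and 11.8 for Loxl2. Bmp1, which trims procollagen, read 902 and 724 at 1 dpi versus 2155 and 2578 at 5 dpi (log2 change 1.54 ± 0.29, adjusted p = 0.0299), and Plod2, which hydroxylates lysines for cross-links, read 1564 and 1419.7 at 1 dpi versus 3951 and 3029 at 5 dpi (log2 change 1.21 ± 0.27, adjusted p = 0.0459). In the 4 fits that leave out a library, 1, 0, 1 and 0 members rose.

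Fibronectin rose in every fit that was run. Fn1 (chr1:71585473-71653280), the fibril-forming glycoprotein of early wound matrix, read 243 and 239 uninjured, 239.6 and 796 at 1 dpi versus 34343 and 15673 at 5 dpi (log2 change 5.73 ± 0.54, adjusted p = 0.00425). Over the 18 alternatives its call held, and its adjusted p was 0.0225, 0.00914, 0.0207 and 0.036 without the first and second 1 dpi and the first and second 5 dpi library. Of 29 basement membrane and matrix glycoprotein genes 3 rose (10.3%) and 0 fell, against 1.33% of all genes that rose. The median was 1.90, or 1.78 without 3 genes listed at 0 in a group. In 18 of 29 both 5 dpi libraries lay above both 1 dpi libraries, which held for 25.8% of all genes tested. Postn, periostin, a matrix protein of healing tissue, was listed at 0 in both 1 dpi libraries and read 320.4 and 232 at 5 dpi (adjusted p = 0.00767). Lama1, a laminin chain, read 0 and 0 at 1 dpi versus 87 and 221 at 5 dpi (adjusted p = 0.0157) and was also listed at 0 in the uninjured pair. Leaving out each library in that order, 2, 1, 4 and 1 members rose, and the median lay between 1.62 and 2.40.

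Proteoglycans and integrins gave fewer calls. Of 19 chondroitin sulfate and hyaluronan matrix genes 2 rose (10.5%) and 1 fell (5.26%). Over all genes tested 1.33% rose and 1.71% fell. Vcan, versican, a large chondroitin sulfate proteoglycan of provisional matrix, read 0 and 1 uninjured, 224 and 235 at 1 dpi versus 2097 and 1030.2 at 5 dpi (log2 change 2.68 ± 0.47, adjusted p = 0.0253). Bgn, biglycan, read 1 and 4.2 at 1 dpi versus 136 and 191 at 5 dpi (log2 change 5.65 ± 1.16, adjusted p = 0.0376). Cd44, the hyaluronan receptor that also counts as a gliosis gene, read 3.9 and 3.9 uninjured, 3173 and 6648 at 1 dpi versus 1792 and 867 at 5 dpi (log2 change -1.88 ± 0.41, adjusted p = 0.0464). Vcan thus read higher at each later time, whereas Cd44 was highest at 1 dpi and still far above the uninjured pair at 5 dpi. Vcan is also the 1 called gene among 16 tested markers of oligodendrocyte progenitors. That list, Vcan included, summed to 0.0191% and 0.0153% at 1 dpi and 0.0358% and 0.0572% at 5 dpi, higher in both 5 dpi libraries. The rise of Vcan itself enters this sum. The part of progenitors in the Vcan result was not tested. Of 14 integrins 2 rose and 0 fell. Itgb8, whose product releases active TGF-beta from its latent form, read 1301 and 1154 uninjured, 381 and 551 at 1 dpi versus 1798 and 2569 at 5 dpi (log2 change 2.23 ± 0.33, adjusted p = 0.0157). Itga1, a collagen receptor chain, read 1.6 and 7.8 at 1 dpi versus 368 and 141 at 5 dpi (log2 change 5.58 ± 1.00, adjusted p = 0.0262). With single libraries left out in that order, 0, 0, 1 and 0 integrins and 0, 0, 0 and 0 proteoglycan genes rose, and 0, 0, 1 and 0 proteoglycan genes fell. None of 26 matrix proteases and inhibitors was called by limma, where 5 were higher and 4 lower at an unadjusted p under 0.05.

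Ligands, carriers and targets of the TGF-beta and BMP pathways rose. Of 27 genes 5 rose and 0 fell, with a median of 1.73, or 1.58 without 2 genes listed at 0 in a group. In 20 of the 27 (74.1%) both 5 dpi libraries lay above both 1 dpi libraries, against 25.8% of all genes tested. The share called higher was 18.5%, against 1.33% of all genes tested. Among ligands, Tgfb2 read 269.9 and 229.8 uninjured, 138 and 117 at 1 dpi versus 1067 and 749 at 5 dpi (log2 change 2.81 ± 0.45, adjusted p = 0.0206), and Tgfb3 read 12.7 and 46.7 at 1 dpi versus 612 and 345 at 5 dpi (log2 change 4.17 ± 0.82, adjusted p = 0.0326). Bmp6, a BMP ligand, read 1 and 0 at 1 dpi versus 158 and 206 at 5 dpi (log2 change 7.0 ± 0.95, adjusted p = 0.0138). Tgfb3 and Bmp6 were close to 0 in the uninjured pair, with 1.1 and 0.9 and 1 and 0. Ltbp3, which tethers latent TGF-beta to the matrix, read 484 and 621 at 1 dpi versus 1624 and 2032 at 5 dpi (log2 change 1.73 ± 0.27, adjusted p = 0.02). Id3, a helix-loop-helix inhibitor that is a textbook target of BMP signalling, stood at 0 in the uninjured pair and read 63.5 and 14.6 at 1 dpi versus 891 and 2216 at 5 dpi (log2 change 5.47 ± 0.77, adjusted p = 0.0147). Its adjusted p was 0.0243, 0.0662, 0.0322 and 0.115 without the first and second 1 dpi and the first and second 5 dpi library. Over the list, 2, 0, 3 and 0 members rose in these fits, and the median lay between 1.45 and 1.83.

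**Figure D4:**
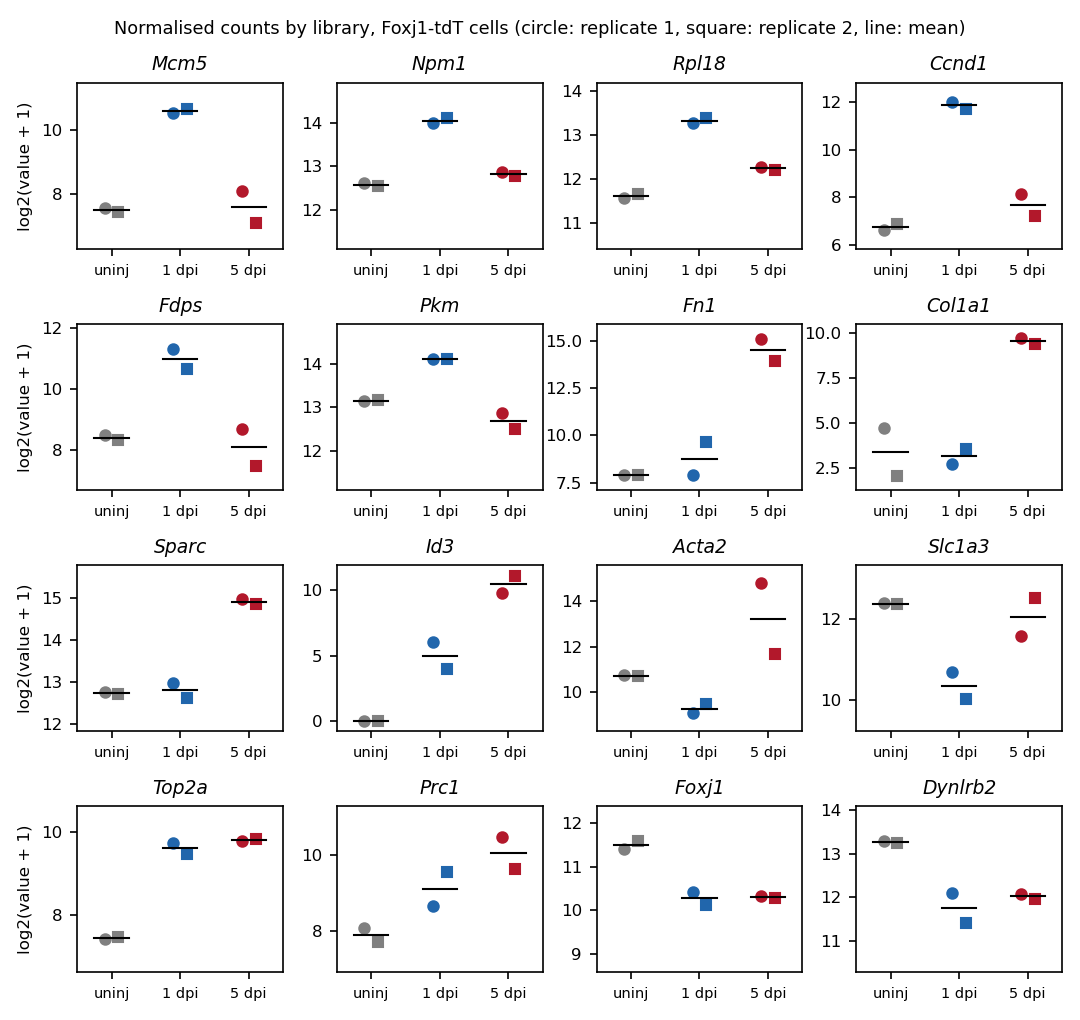
Log2(value + 1) of 16 genes (vertical axes, each with its own range) in uninjured, 1 dpi and 5 dpi Foxj1_tdT libraries; circles are replicate 1, squares replicate 2 and lines the mean of the pair. Mcm5, Npm1, Rpl18, Ccnd1, Fdps and Pkm are highest at 1 dpi, Fn1, Col1a1, Sparc, Id3 and Acta2 at 5 dpi, and Top2a, Prc1, Foxj1 and Dynlrb2 were not called.

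Contractile genes rose, with large differences between the 5 dpi libraries. Of 30 genes 6 rose (20%) and 2 fell (6.67%), with a median of 0.80, or 0.79 without 1 gene listed at 0 in a group. Over all genes tested 1.33% rose and 1.71% fell. Acta2, smooth muscle actin, read 1699 and 1669.9 uninjured, 539.8 and 711 at 1 dpi versus 27906 and 3294 at 5 dpi (log2 change 3.95 ± 0.83, adjusted p = 0.0403). Its 1 dpi values were below the uninjured ones, and the first 5 dpi library held several times the value of the second. Tpm2, a tropomyosin of muscle-like fibres, was listed at 0 in both 1 dpi libraries and read 2533 and 616 at 5 dpi (adjusted p = 0.0147). Cnn3, a calponin, read 27574 and 31237 at 1 dpi versus 67251 and 49066 at 5 dpi (log2 change 0.97 ± 0.15, adjusted p = 0.0176). The actin monomer binding thymosins moved in opposite directions: Tmsb4x read 21964 and 40573 at 1 dpi versus 86702 and 69919 at 5 dpi (log2 change 1.38 ± 0.24, adjusted p = 0.0253) and Tmsb10 read 11887 and 13615 at 1 dpi versus 6582 and 6444 at 5 dpi (log2 change -0.97 ± 0.16, adjusted p = 0.0226). Ezr, which links actin to the membrane of microvilli, fell, with 8798 and 7956 at 1 dpi versus 4558 and 4052 at 5 dpi (log2 change -0.96 ± 0.18, adjusted p = 0.0313). Without each of the 4 libraries in turn 0, 1, 1 and 2 members rose and 0, 0, 1 and 0 fell. Of 10 markers of pericytes and smooth muscle 6 were in the table, and they summed to 0.000699% and 0.000249% at 1 dpi and 0.0016% and 0.00359% at 5 dpi. These markers were thus low but higher at 5 dpi, with the second library, not the first, as the highest. Their part in the contractile result was not tested.

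The growth factor list held 2 calls in each direction. Of 37 growth factor and receptor genes 2 rose and 2 fell (5.41% each), and 33 were not called. Over all genes tested 1.33% rose and 1.71% fell. Hbegf, a membrane-bound EGF receptor ligand, read 1964 and 1936 uninjured, 5619 and 11623 at 1 dpi versus 2720.3 and 1779 at 5 dpi (log2 change -1.88 ± 0.34, adjusted p = 0.0278), and Pdgfa, a ligand for progenitors of oligodendrocytes, read 871 and 1269 at 1 dpi versus 386 and 351 at 5 dpi (log2 change -1.51 ± 0.28, adjusted p = 0.0299). Both were lower at 5 dpi, and Pdgfa had dropped below its uninjured values of 762 and 788. The related heparin-binding factors midkine and pleiotrophin rose together. Mdk read 816 and 868 uninjured, 287 and 316 at 1 dpi versus 1979 and 2496 at 5 dpi (log2 change 2.88 ± 0.41, adjusted p = 0.0147), and Ptn read 63 and 57.6 uninjured, 32.3 and 18.7 at 1 dpi versus 2020.2 and 1973 at 5 dpi (log2 change 6.29 ± 1.41, adjusted p = 0.0491). With 1 of the 4 libraries left out in the same order, 0, 0, 1 and 0 of these genes rose and 1, 0, 1 and 0 fell. Lgr4, an R-spondin receptor, was the 1 gene of 25 in the Wnt list that was called, with 1208 and 1118 at 1 dpi versus 4011 and 4462 at 5 dpi (log2 change 1.86 ± 0.36, adjusted p = 0.031), and no gene of that list was called in the 4 fits without a library. No gene of the Notch list (18 tested) or of the YAP and TEAD targets (15 tested) was called by limma, where 2 and 1 were higher at an unadjusted p under 0.05.

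Some glial and progenitor genes rose, while more of the gliosis list lay lower than higher at 5 dpi. Of 16 astrocyte markers 3 rose and 0 fell, and of 18 neural stem and progenitor genes 2 rose. Of 25 reactive gliosis genes 1 rose (Vim) and 1 fell (Cd44). Over all genes tested 1.33% rose and 1.71% fell. The list medians were 0.20, 0.78 and -0.45 in that order. Of the gliosis changes 16 were below 0 and 9 above, and of the astrocyte ones 6 and 10. Both 5 dpi libraries lay below both 1 dpi libraries in 12 gliosis genes (48.0%), against 23.1% of all genes tested. Slc1a3, the glutamate transporter GLAST of astrocytes and radial glia, read 5387 and 5320 uninjured, 1652 and 1052 at 1 dpi versus 3067 and 5920.1 at 5 dpi (log2 change 1.69 ± 0.32, adjusted p = 0.0299). S1pr1, a sphingosine phosphate receptor, read 2138 and 2291 uninjured, 773 and 1019 at 1 dpi versus 2657 and 2431 at 5 dpi (log2 change 1.52 ± 0.29, adjusted p = 0.0319). Both read lower at 1 dpi than in the uninjured pair, and their 5 dpi values lay around or nearer the uninjured ones. Slc1a3 is counted in the astrocyte list, the stem list and the list of glial junctions and channels. Kcnj10, the potassium channel of glial membranes, read 975 and 667 at 1 dpi versus 1851 and 3001 at 5 dpi (log2 change 1.55 ± 0.30, adjusted p = 0.0306), and Ntsr2, a neurotensin receptor of astrocytes, read 187 and 52 at 1 dpi versus 888 and 1724 at 5 dpi (log2 change 3.63 ± 0.72, adjusted p = 0.0343). Fabp7, a fatty acid binding protein of radial glia, read 930.1 and 889 uninjured, 633 and 51 at 1 dpi versus 6124 and 11343 at 5 dpi (log2 change 5.52 ± 0.94, adjusted p = 0.0248). Its 1 dpi libraries differed strongly from each other. Cdh2, N-cadherin, read 2313 and 2904 at 1 dpi versus 4838 and 5982 at 5 dpi (log2 change 1.05 ± 0.23, adjusted p = 0.0473). Vim, the intermediate filament vimentin, read 10378 and 11101 uninjured, 71254 and 76501 at 1 dpi versus 123095 and 129287 at 5 dpi (log2 change 0.77 ± 0.13, adjusted p = 0.0235), so it stood far above the uninjured pair at both times and higher at 5 dpi. In the 4 fits that leave out a library, 0, 0, 2 and 0 astrocyte genes, 1, 0, 1 and 0 stem genes and 0, 0, 3 and 0 glial junction and channel genes rose. Of the gliosis list 0 rose in each of these fits and 0, 0, 3 and 0 fell. The astrocyte list summed to 0.285% and 0.337% at 1 dpi and 0.343% and 0.401% at 5 dpi. Both 5 dpi libraries thus lay slightly above both 1 dpi libraries. The sum includes the called genes Slc1a3, S1pr1 and Ntsr2, so their rise is counted in it again. The part of astrocytes in these results was not tested.

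Few immune and injury signals were called. Of 14 chemokines and cytokines 2 fell (14.3%) and 0 rose. Over all genes tested 1.71% fell and 1.33% rose. Ccl2, which recruits monocytes, was listed at 0 in the uninjured pair and read 36.3 and 48.5 at 1 dpi versus 0 and 0 at 5 dpi (adjusted p = 0.0204). Mif, a cytokine released by many cells, read 1576 and 1678 uninjured, 6378 and 8264 at 1 dpi versus 2855 and 2258 at 5 dpi (log2 change -1.52 ± 0.19, adjusted p = 0.00885). Ccl2 was thus detected at 1 dpi alone, at low values. Of 24 immediate early and AP-1 genes 1 rose and 1 fell: Fosl1, an AP-1 subunit, read 0 and 3.5 uninjured, 369.7 and 635 at 1 dpi versus 21.5 and 0 at 5 dpi (log2 change -6.68 ± 1.28, adjusted p = 0.0313), while Jund, another, read 198 and 209.9 at 1 dpi versus 592 and 812 at 5 dpi (log2 change 1.76 ± 0.38, adjusted p = 0.0429). Leaving out each library in that order, 1, 0, 2 and 0 of the chemokine list and 0, 0, 1 and 0 of the AP-1 list fell, and 0 of the AP-1 list rose in each. None of 19 gp130 cytokine signalling genes, 21 NF-kappaB genes, 33 interferon response genes, 18 MHC class I genes and 10 complement genes was called by limma, of which 6, 1, 2, 2 and 1 were lower at an unadjusted p under 0.05 and 1, 3, 2, 3 and 0 higher. Osmr, the oncostatin M receptor, read 0.8 and 4.4 uninjured, 758 and 1377 at 1 dpi versus 2345 and 1960.3 at 5 dpi (log2 change 1.07 ± 0.51, adjusted p = 0.318), and Stat3, the factor it activates, read 723 and 1000 uninjured, 2346 and 1676 at 1 dpi versus 1765 and 1791 at 5 dpi (log2 change -0.16 ± 0.29, adjusted p = 0.831). Socs3, its feedback inhibitor, read 2743 and 2712 at 1 dpi versus 2511 and 1752 at 5 dpi (log2 change -0.38 ± 0.28, adjusted p = 0.536). Ifitm3, an interferon-induced membrane protein, read 21687 and 22793 at 1 dpi versus 24311 and 21541 at 5 dpi (log2 change 0.04 ± 0.23, adjusted p = 0.955). Osmr and Stat3 thus stood above the uninjured pair in all 4 injured libraries, with no called difference between the times.

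Stress lists held few calls, in both directions. Of 19 chaperones 2 fell (10.5%) and 1 rose, beside 1.71% of all genes tested that fell. Hspd1, the mitochondrial chaperonin, read 4297 and 4052 uninjured, 8365 and 11032 at 1 dpi versus 3254 and 2305 at 5 dpi (log2 change -1.81 ± 0.26, adjusted p = 0.0153), and Hsp90ab1, the constitutive HSP90, read 40994 and 38263 at 1 dpi versus 28119.6 and 24072 at 5 dpi (log2 change -0.61 ± 0.11, adjusted p = 0.0299). Hspa1a, the heat-inducible HSP70, moved the other way, with 984 and 1051 uninjured, 282 and 229 at 1 dpi versus 2679 and 1532 at 5 dpi (log2 change 2.99 ± 0.47, adjusted p = 0.0185). Its sequence is nearly identical to that of a neighbouring copy, so its reads may be split. Of 21 antioxidant, iron and metal genes 3 fell and 0 rose. Fth1, the ferritin heavy chain that stores iron, read 44396 and 43534 uninjured, 53771 and 48242 at 1 dpi versus 23386 and 24245 at 5 dpi (log2 change -1.10 ± 0.11, adjusted p = 0.00494). Gstm1, a glutathione transferase, read 8610.2 and 8429 uninjured, 5008 and 3669 at 1 dpi versus 1838 and 1904 at 5 dpi (log2 change -1.20 ± 0.18, adjusted p = 0.0181), and Txnrd1, thioredoxin reductase, read 2180.2 and 3064 at 1 dpi versus 898 and 1169 at 5 dpi (log2 change -1.33 ± 0.24, adjusted p = 0.0273). Fth1 and Gstm1 at 5 dpi were below the uninjured pair as well. Of 28 genes of the unfolded protein response 1 fell (3.57%), Creld2, with 1678 and 1993 at 1 dpi versus 1017 and 989 at 5 dpi (log2 change -0.87 ± 0.19, adjusted p = 0.0484). With single libraries left out in that order, 1, 0, 4 and 0 chaperones and 1, 2, 1 and 0 antioxidant genes fell, and 0 of the unfolded protein response fell and 0 chaperones rose in each of the 4 fits.

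No motile cilia gene was called between the times in control cells. Of 48 axoneme genes tested 0 were called by limma, with a median log2 fold change of 0.27, where 2 were higher and 0 lower at an unadjusted p under 0.05. None of 29 intraflagellar transport and BBSome genes and 11 ciliogenesis transcription factors was called, with medians of 0.08 and 0.04. Ccdc153 read 22994 and 24154 uninjured, 7363 and 4456 at 1 dpi versus 3259.8 and 4569.5 at 5 dpi (log2 change -0.57 ± 0.26, adjusted p = 0.286). Rsph1, a radial spoke protein, read 13065 and 13441 uninjured, 6084 and 4432 at 1 dpi versus 4466 and 5118 at 5 dpi (log2 change -0.12 ± 0.20, adjusted p = 0.814), and Dynlrb2, a dynein light chain, read 9942 and 9659 uninjured, 4374 and 2704 at 1 dpi versus 4329 and 3976 at 5 dpi (log2 change 0.27 ± 0.27, adjusted p = 0.658). All 4 injured libraries lay below the uninjured pair for these 3 genes. The axoneme median lay between 0.07 and 0.40 without each of the 4 libraries. That of the intraflagellar transport list lay between -0.07 and 0.15 and that of the transcription factors between -0.11 and 0.96, so both took either sign.

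The largest changes included genes outside the lists. Htra4, a secreted serine protease, was listed at 0 in the uninjured and 1 dpi libraries and read 1148 and 2401 at 5 dpi (adjusted p = 0.00425). Piezo2, a mechanically gated ion channel, read 1.3 and 0 uninjured, 0 and 1.2 at 1 dpi versus 888 and 612 at 5 dpi (log2 change 8.96 ± 1.02, adjusted p = 0.00744). Serpinf1, the secreted factor PEDF, read 0 and 0 at 1 dpi versus 301 and 324 at 5 dpi (adjusted p = 0.00767), and Apcdd1, a membrane inhibitor of Wnt signalling, read 0 and 0 at 1 dpi versus 105 and 231 at 5 dpi (adjusted p = 0.0157). These 4 genes were listed at 0 or near it before 5 dpi. Zic4, a zinc finger transcription factor, read 0.8 and 0 at 1 dpi versus 219 and 212 at 5 dpi (log2 change 7.34 ± 1.54, adjusted p = 0.0398), and Ptgds, prostaglandin D synthase, read 5.2 and 0 at 1 dpi versus 269 and 505 at 5 dpi (log2 change 7.21 ± 1.08, adjusted p = 0.0165). Plekhg1 and Tmem35a were present in uninjured cells, with 79.9 and 64.9 for Plekhg1 and 122 and 119 for Tmem35a. They were listed at 0 in both 1 dpi libraries and back at 5 dpi, with 386 and 336 for Plekhg1 (adjusted p = 0.0066) and 255 and 248 for Tmem35a (adjusted p = 0.00425). Among falling genes, Rgs16, a brake on G protein signalling, read 353 and 369.6 at 1 dpi versus 0 and 1 at 5 dpi (log2 change -8.0 ± 1.42, adjusted p = 0.0253), and Prkg2, a cGMP-dependent kinase, read 408 and 606 at 1 dpi versus 5.2 and 7.5 at 5 dpi (log2 change -6.10 ± 0.68, adjusted p = 0.00731). Both were almost absent in uninjured cells, as was Sstr2, a somatostatin receptor, with 229 and 142 at 1 dpi versus 0 and 1 at 5 dpi (log2 change -7.0 ± 1.44, adjusted p = 0.0382). Gcat, a mitochondrial enzyme of threonine breakdown, was present uninjured with 108 and 122 and listed at 0 in both 5 dpi libraries, with 263 and 161 at 1 dpi versus 0 and 0 at 5 dpi (adjusted p = 0.00425). Elavl4, a neuronal RNA-binding protein, read 549 and 184 at 1 dpi versus 4 and 0 at 5 dpi (log2 change -7.15 ± 1.46, adjusted p = 0.0373), and neuronal markers summed to 0.0869% and 0.0226% at 1 dpi and 0.0341% and 0.0398% at 5 dpi. Elavl4 was thus highest in the library with the most neuronal marker signal. The other libraries did not follow that order. The second 1 dpi library had the lowest neuronal share, yet its Elavl4 value was near the uninjured 198 and 144. Both 5 dpi libraries had higher neuronal shares than that library, yet lower Elavl4 values. The part of neuronal signal in the Elavl4 result was not tested.

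Nfia (chr4:97578066-98118876) and Car3 were chosen after their values were seen. Nfia, a transcription factor that drives the switch to astrocyte fate in development, read 5927 and 6247 uninjured, 2821 and 2973 at 1 dpi versus 9938 and 14176 at 5 dpi (log2 change 2.03 ± 0.17, adjusted p = 0.00425). With Fn1 it was 1 of the 2 genes called in all 18 alternatives, and its adjusted p was 0.0234, 0.034, 0.00751 and 0.0274 without each compared library in the order above. Car3, carbonic anhydrase 3, read 685 and 635 uninjured, 146 and 332 at 1 dpi versus 5629.9 and 4744 at 5 dpi (log2 change 4.55 ± 0.43, adjusted p = 0.00425). Both genes were lowest at 1 dpi and highest at 5 dpi.

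The change from 1 to 5 dpi differed between the genotypes for many of these genes. A test of the difference between the change in Foxj1_tdT and that in Foxj1_Olig2_tdT cells (limma interaction, Benjamini-Hochberg adjusted p under 0.05) called 731 of 15521 genes (4.71%), among them 154 of the 471 genes called in control cells (32.7%). Within Foxj1_Olig2_tdT cells the change from 1 to 5 dpi was called for 1532 genes (9.87%). The interaction and the control contrast share the control libraries, so this share is a description. The count was between 258, without the second control 5 dpi library, and 911, without the second Foxj1_Olig2_tdT uninjured library, when 1 library was left out. By this test 16 of 35 ribosomal protein genes, 7 of 30 ribosome biogenesis genes and 5 of 36 DNA replication genes differed. The Foxj1_Olig2_tdT medians were 0.10, 0.10 and 0.15 for these 3 lists. For Npm1 the difference, control minus Foxj1_Olig2_tdT, was -1.46 ± 0.17, adjusted p = 0.00362, on the log2 scale, with a change of 0.24 in Foxj1_Olig2_tdT cells. Cdk4 gave a difference of -1.80 ± 0.21, adjusted p = 0.00362. The growth lists thus had medians below 0 in control cells and near 0 in the other genotype. Motile cilia genes showed the reverse picture, with 39 of 48 genes called for the difference and a Foxj1_Olig2_tdT median of -2.68. For Rsph1 the difference was 2.64 ± 0.29, adjusted p = 0.00326. For the mitosis list 2 of 40 genes were called, near the 4.71% of all genes tested, although the Foxj1_Olig2_tdT median was 3.27. Beside the 4.71% of all genes tested, 2 of 24 collagens were called for a difference, too few to set that list apart. One of them, Col4a1, changed by 2.03 in control and by -0.63 in Foxj1_Olig2_tdT cells. None of 22 collagen processing genes and 25 cholesterol synthesis genes was called for a difference. The Foxj1_Olig2_tdT medians of these 3 lists were 1.17, 1.21 and -1.45. A missed threshold does not show that the genotypes acted alike.

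**Figure D5:**
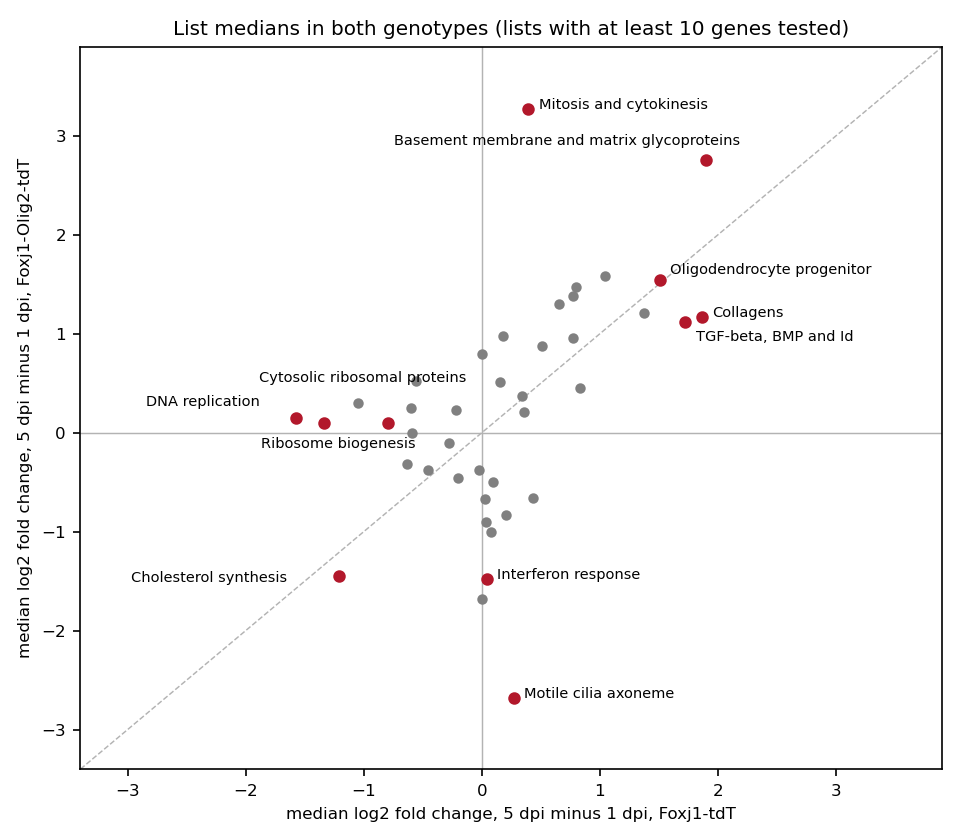
Median log2 fold change, 5 dpi minus 1 dpi, of each list with at least 10 genes tested, in Foxj1_tdT (horizontal axis) and Foxj1_Olig2_tdT cells (vertical axis), with named lists in red and equal change on the dashed line. The growth lists lie left of 0 and near 0 on the vertical axis, and the motile cilia list lies near 0 on the horizontal axis and at -2.68 on the vertical axis.

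Promoters of the changed genes were also looked up in 1 single-cell ATAC library of uninjured cord, which measures open chromatin as cut sites per peak and cell. It held 754 cells of the authors' ependymal classes EP1, EP2 and EP3, pooled here as EP, with a median of 27552 cut sites each. With 1 library there is no test. Of the genes that fell 199 had a promoter window, and in 196 of these (98.5%) a deposited peak overlapped it, against 10029 of 11189 genes tested (89.6%). For genes that rose the count was 132 of 147 (89.8%). Genes that rose from a mean under 10 both uninjured and at 1 dpi had a promoter peak in 13 of 23 cases (56.5%) and were open in a median of 1.86% of EP cells. All tested genes with such low means had one in 350 of 627 cases (55.8%), with a median of 1.72%. The rising genes that started low thus stood close to other low genes in this measure. Among members, the Id3 promoter was cut in 77 EP cells (10.2%, exact 95% interval 8.14% to 12.6%). In the authors' class PER it was cut in 28 of 40 cells (70.0%, 53.5% to 83.4%), whose median was 20076 cut sites. It was also cut in 41.6% of 173 cells of the astrocyte classes ACNT1 and ACNT2, pooled here. The shares were 26.9% of 67 cells of class OPC and 42.0% of 50 cells of class VEC. Median cut sites were 14164, 37481 and 7250 in these 3 sets of cells. EP thus had the lowest share of the sets compared. The Tpm2 promoter was cut in 97 EP cells (12.9%, 10.6% to 15.5%), that of Mcm5 in 324 (43.0%, 39.4% to 46.6%) and that of Nfia in 321 (42.6%, 39.0% to 46.2%). No deposited peak overlapped the windows of Postn, Serpinf1, Bmp6 and Col6a1. Intervals are Clopper-Pearson and cover counting error only, and depth differs between classes.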

How the data were processed

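The bulk signal values were normalised counts per gene deposited by the authors. The counting program, scaling and depth are not given in the sources used here. The commonest low values lay near 1, but values in between occurred, so whole reads were not recovered. For single-cell ATAC the authors deposited cut site counts by peak and cell, with class names. The submitters' processing notes name mm10, Bowtie2, SAMtools, deepTools, Cell Ranger and Cell Ranger ATAC without versions. Single-cell RNA and bulk ATAC data were not used here. The 23 rows named as dates are not named, and some genes are not reported here.

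Fits used limma 3.58.1 (R 4.3.3) on log2(value + 1), with group means and a trended empirical Bayes variance. The 10 libraries in the fit left out the uninjured Foxj1_tdT pair, whose members are nearly identical (r = 0.990). They gave 5 residual degrees of freedom and 4.31 prior ones. Genes needed 10 or more normalised counts in 2 or more libraries. The script recovered known changes in simulated data. The members, the 48 lists of textbook pathways and markers (1096 genes, 988 tested, 125 called) and the tests were chosen with earlier results of these data known.

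Named genes were Foxj1 and Olig2, the 15 highest and 15 lowest fold changes among called genes with no overlap and a mean of at least 50 in 1 group, up to 6 called members per list by p-value, and up to 3 members by level of lists without calls. The text shows a part of these. Others are said to be chosen after their values were seen. Alternatives were a pseudocount of 8, no filter, median-of-ratios or quantile scaling, other sets of libraries, a replicate block, and each library left out. Gene positions and promoter windows came from RefSeq tables (GRCm38.p6), the build that mm10 is based on. A promoter peak is a deposited peak that overlaps a window by at least 1 base. Tables were handled with pandas 2.3.3, numpy 2.4.6 and scipy 1.17.1, and figures drawn with matplotlib 3.10.9.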

Additional observations from a re-analysis of the deposited data

Results flagged for a closer look

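Of the 119 genes named in the text, 38 stood out because their log2 change from 1 to 5 dpi differed between the genotypes (limma interaction, Benjamini-Hochberg adjusted p under 0.05 over all genes tested). Values are the change in Foxj1_tdT minus that in Foxj1_Olig2_tdT cells. They were above 0 for 11 genes and below 0 for 27. Many of the named genes were picked for their change in control cells, which enters this difference, and a gene listed at 0 in a group has a difference that depends on the pseudocount.

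Among replication, cycle entry and nucleolar genes the difference was -1.73 for Mcm4, -3.27 for Mcm5, -2.34 for Mcm6, -2.57 for Uhrf1, -3.57 for Ccnd1, -1.80 for Cdk4, -1.46 for Npm1, -1.13 for Ncl, -2.41 for Nop56, -2.69 for Nop58 and -2.95 for Srm. Among ribosomal proteins it was -0.96 for Rpl13, -0.92 for Rpl18, -0.996 for Rps2 and -0.90 for Rps3. For metabolic, chaperone and p53 genes it was -1.08 for Pkm, -0.88 for Atp5b, -1.59 for Hspd1, -1.98 for Trp53 and -2.15 for Phlda3. For signalling and other genes that fell in control cells it was -1.52 for Mif, -2.32 for Hbegf, -1.68 for Tmsb10, -10.49 for Rgs16, -6.29 for Prkg2, -7.34 for Gcat and -10.67 for Elavl4, of which Gcat was listed at 0 in both control 5 dpi libraries. For ependymal genes that were not called in control cells it was 1.27 for Foxj1, 3.12 for Dynlrb2, 2.64 for Rsph1 and 3.05 for Ccdc153. In these 4 genes the change in Foxj1_Olig2_tdT cells was -1.23, -2.85, -2.75 and -3.62. For genes that rose in control cells it was 6.69 for Bmp6, 2.67 for Col4a1, 2.29 for Kcnj10, 1.10 for Nfia, 4.56 for Car3, 10.89 for Plekhg1 and 5.04 for Tmem35a, of which Plekhg1 and Tmem35a were listed at 0 in both control 1 dpi libraries.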

How the results depend on the processing

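Over 18 alternatives no called gene that was tested changed sign, 461 of the 471 being tested in each fit without a Foxj1_tdT 5 dpi library. The alternatives reuse the libraries by which the genes were called, so this constancy was nearly fixed in advance. Counts of calls moved. With all 12 libraries 925 genes were called (433 higher, 492 lower at 5 dpi), and with only the 4 compared libraries, which leave 2 degrees of freedom, 33 (26 higher, 7 lower). Leaving out 1 library, whose lone partner was then assumed to vary like the other groups, gave between 6 and 652 calls, 4 to 297 higher and 2 to 355 lower. The lowest counts came without the second 5 dpi library and the highest without the first Foxj1_Olig2_tdT uninjured library. Without a Foxj1_Olig2_tdT 5 dpi library, which only shares the spread, 130 and 136 genes were called. The genotype difference was called for 1315 genes with all 12 libraries and for between 258 and 911 without 1 library. The cause of these shifts was not tested. Called in every alternative except the 4-library fit and those without a compared library were 122 of the 471 genes. A pseudocount of 8, no filter, median-of-ratios factors, quantile normalization and the uninjured pair entered as 1 library gave 602, 442, 472, 509 and 451 calls.

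Replicate numbers did not pair the samples: over 10 pairs of groups same-numbered deviations correlated between -0.03 and 0.02, and 0 pairs passed 0.1. With the replicate number as a block 293 genes were called (135 higher, 158 lower).

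Some list medians turned sign. Without 1 of the 4 compared libraries in turn, the medians of 13 of 47 lists took both signs: intraflagellar transport, ciliogenesis factors, immediate early genes, chemokines, NF-kappaB, interferon, MHC class I, complement, mitosis, antioxidant genes, mature oligodendrocytes, infiltrating myeloid cells and neurons. Reported values were 0.15 for the immediate early and AP-1 list, 0.44 for chemokines, -0.02 for antioxidant genes and 0.18 for chondroitin sulfate genes. The immediate early and AP-1 median was -0.12 without the second 1 dpi and -0.05 without the second 5 dpi library, and at most 0.59, without the first 1 dpi library. The chemokine median ranged from -0.22 without the first 1 dpi library to 0.78 without the first 5 dpi library. The antioxidant median was 0.085 after quantile normalization, -0.15 without the second 1 dpi, 0.21 without the first 1 dpi and 0.12 without the first 5 dpi library. The chondroitin sulfate median was -0.35 after quantile normalization. Depth is unknown, so a value of 0 sets no limit on a gene's level.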

Other observations

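Positional genes and several marker lists of other cell types held no call. Of the markers tested 3 of 7 fibroblast, 3 of 16 astrocyte and 1 of 16 oligodendrocyte progenitor ones rose. These shares were 42.9%, 18.8% and 6.25%, against 1.33% of all genes tested. Of 29 Hox and positional identity genes 0 were called by limma, with a median log2 change of 0.83. At an unadjusted p under 0.05, 8 were higher and 1 lower, against 8.85% and 9.07% of all genes tested. In 14 of them both 5 dpi libraries lay above both 1 dpi libraries, a share of 48.3% against 25.8% of all genes tested. Markers of mature oligodendrocytes summed to 0.116% and 0.118% uninjured, 0.222% and 0.0216% at 1 dpi and 0.0324% and 0.0374% at 5 dpi of the normalised counts. Of 18 tested 0 were called. Endothelial markers summed to 0.00942% and 0.00757% at 1 dpi and 0.0112% and 0.011% at 5 dpi, with 0 of 7 called. Infiltrating myeloid markers summed to 0.0017% and 0.00139% at 1 dpi and 0.00122% and 0.0013% at 5 dpi, with 0 of 5 called, and no marker of T and B cells passed the filter on low values.

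Promoter letters were also counted over the called genes as a whole. The E-box letters CACGTG, known from targets of MYC and of clock factors, occurred in 43 of 256 windows of falling genes (16.8%), in 17 of 193 windows of rising genes (8.81%) and in 9.36% of windows of genes tested. In the ribosome biogenesis list 5 of 24 genes with a window held them, but 0 of the 9 falling ones. The letters GGGCGG were likewise commoner in falling windows, with 68.4% against 52.3% of rising ones and 59.3% of windows of genes tested. The letters CCAAT on either strand occurred in 16 of 20 windows of the cholesterol list (80.0%) and in 37.5% of windows of genes tested, while the sterol element TCACNCCAC occurred in 1 of the 20. These are counts of letters in windows of 300 bases, and genes with several windows are counted more than 1 time.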
